A study of Rattus norvegicus with 14 samples.

Results

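Windows of 1000 bp in which one library stood far from all the others were collected from a table of DNA methylation in rat soleus muscle. The rule took windows of chromosomes 1 to 20 with a value in all 14 samples. Exactly one sample had to differ by 30 percentage points or more from the median of the other 13, and those 13 had to span at most 15 points. It found 138 windows among 131799 autosomal windows with 14 values and among 194367 windows in the whole table. The deviating sample was higher in 46 windows, called gains here, and lower in 92, called losses. The rule itself used these levels, so the levels and counts of the windows are a description and carry no test.

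The soleus is a slow, fatigue-resistant muscle of the hind limb that holds posture. It had been taken from the left leg of female rats aged 23 to 24 months. They belonged to generation 44 of a high-running capacity line (HCR, 6 samples) and a low-running capacity line (LCR, 8 samples), both selected from the genetically heterogeneous N:NIH stock. All samples were collected at baseline, with no treatment named in the labels, and all rats had standard chow and water at will. The study asked which methylation differences go with inherited aerobic capacity in old muscle. Nothing in the labels states that each replicate was a different rat, so a p-value here speaks of the spread among these libraries, which may be technical. The lines are closed, selected populations, so line and pedigree cannot be told apart.

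Methylation of cytosine in CpG dinucleotides is a stable mark in adult tissue. Most CpGs outside CpG islands are methylated in muscle as in other tissues, whereas islands at the promoters of active genes are usually free of it. Reduced representation bisulfite sequencing (RRBS) reads mainly CpG-rich sequence, because the DNA is first cut with MspI at CCGG sites. A window with an intermediate level can hold a mix of methylated and unmethylated cells, chromosome copies or neighbouring CpGs. In whole muscle, another mix of cell types and another methylation level within one cell type cannot be told apart. Genes, exons and sequences at these positions were not analysed here, since no annotation of build rn7 was used, and windows are given by their rn7 positions.

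The read depth of each value is unknown, since the table gives percentages only. Samples had a value in 170846 (LCR replicate 7) to 191662 windows (LCR replicate 4). Their mean levels over the autosomal windows with 14 values were between 33.0% (LCR replicate 7) and 36.7% (HCR replicate 4). No pair of libraries held the same values, the closest pair differing by 4.64 points per window on average.

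Gains and losses occupied opposite ends of the methylation range. In the 46 gains the other samples had a median level of 9.60% (quartiles 4.38% and 24.5%), and the deviating sample stood at 44.2% (quartiles 37.8% and 59.4%). In the 92 losses the other samples had a median of 69.9% (quartiles 62.5% and 75.4%), and the deviating sample stood at 32.5% (quartiles 24.1% and 39.5%). The deviating level was therefore mostly intermediate in both directions. It lay between 20% and 45% in 90 of the 138 windows, it was 0% in 1 window and 100% in 2. Full methylation of one sample was found in HCR replicate 4 on chromosome 8 at 61413001 to 61414000, where the other 13 lay between 51.7% and 66.7%. The other such window, on chromosome 1 at 180943001 to 180944000, had 100% in LCR replicate 7 and 52.2% to 65.9% elsewhere. The window without any methylation in one sample was on chromosome 4 at 27199001 to 27200000, with 0% in LCR replicate 7 and 35.3% to 48.2% in the others.

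**Figure D1:**
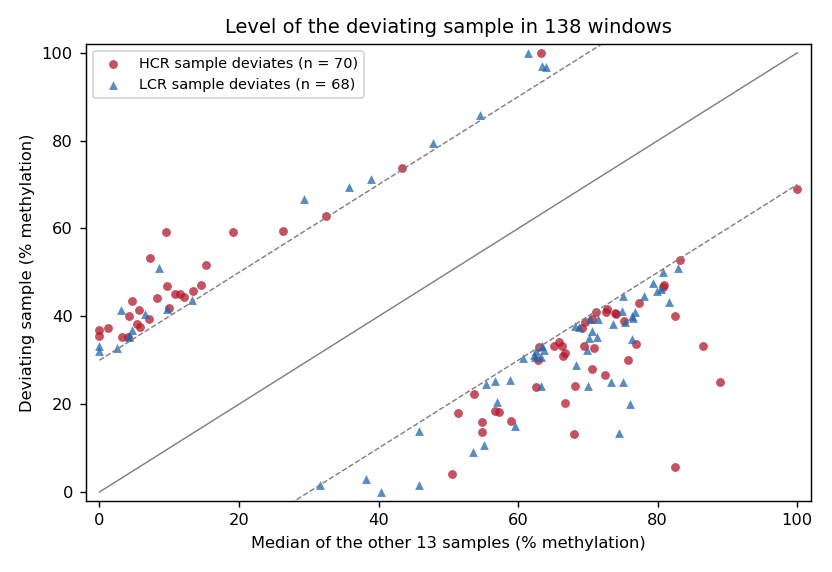
Level of the deviating sample (y axis, % methylation) against the median of the other 13 samples (x axis, % methylation) in each of the 138 windows; red circles are windows in which an HCR sample deviates (70), blue triangles those of an LCR sample (68). The solid line marks equal levels and the dashed lines a difference of 30 points, the minimum of the rule; gains gather at the left above it and losses at the right below it.

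The level of a window limits what it can show: a gain of 30 points needs a median of 70% or less, and a loss a median of 30% or more. Shares were therefore set against every combination of a window and a sample in which the other 13 spanned at most 15 points. Windows with a median under 10% held 26 gains, or 5.49 per 100000 combinations. Those of 10 to 30% held 10 gains (12.5 per 100000), those of 30 to 50% 5 gains and 5 losses (9.66 per 100000 for each), and those of 50 to 70% 5 gains and 41 losses (4.07 and 33.4 per 100000). At 70% or more there were 46 losses, or 40.8 per 100000. Losses from methylated windows were thus several times as frequent per combination as gains in unmethylated ones. Windows under 10% made up 27.8% of all windows and held 18.8% of the members. Their weight among combinations was larger, with 473941, against 79898, 51778, 122817 and 112826 in the 4 higher classes in order.

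Most deviations were close to the minimum of the rule. The median size was 34.03 points, 75 of the 138 windows were under 35 points, 29 reached 40 points (4 gains and 25 losses), and 7 reached 50 points, all of them losses. Just inside the minimum were losses of 30.01, 30.02 and 30.1 points on chromosomes 14, 2 and 10, and just outside it losses of 29.998, 29.98 and 29.9 points on chromosomes 9, 1 and 12. At the limit of the span, the last windows inside had other samples spanning 14.99, 14.99 and 14.98 points, and the first outside 15.1, 15.1 and 15.1 points. Between the deviating sample and the nearest of the other 13 there was an empty gap of 20.6 to 68.5 points, with a median of 27.6. The limits of 30 and 15 points alone force a gap of at least 15 points.

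The largest loss was at 56733001 to 56734000 on chromosome 11. HCR samples had 5.77% at the lowest, a median of 81.5% and 84.6% at the highest, and LCR samples had 74.2%, 83.4% and 86.6%. The low value was HCR replicate 1, and the next sample stood at 74.2%. On chromosome 7 at 22874001 to 22875000 HCR replicate 5 had 25%, the other HCR samples 84.8% to 87.4%, and LCR samples 86.3% to 99.2% (median 91.4%). Here the highest of the other HCR samples reached only the lowest part of the LCR range.

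The third loss by size was at 17770001 to 17771000 on chromosome 20, where LCR replicate 6 had 13.4%, the other LCR samples 68.2% to 76.2% and HCR samples 69.0% to 82.5% (median 78.5%). On chromosome 3 at 158662001 to 158663000 LCR replicate 7 had 20%, against 64.8% to 78.6% in the other LCR samples and 72.4% to 79.7% in HCR (median 76.7%). On chromosome 2 at 241699001 to 241700000 HCR replicate 3 had 13.2%, against 64.4% to 68.6% in the other HCR samples and 66.5% to 76.1% in LCR (median 71.1%). In these 5 windows both lines were methylated at over 60% apart from one library, which had 25% or less.

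The largest gain was at 260284001 to 260285000, near the distal end of the measured part of chromosome 1. HCR samples had 3.33% at the lowest, a median of 10.1% and 59.2% at the highest, and LCR samples had 0.915%, 9.61% and 14.5%. The high value was HCR replicate 2, and the other 13 samples overlapped between lines. At 61750001 to 61751000 on chromosome 2 HCR replicate 1 had 53.3%, the other HCR samples 0.797% to 12.5% and LCR samples 3.26% to 10.6% (median 7.68%). At 30459001 to 30460000 on chromosome 19 LCR replicate 3 had 51.0%, the other LCR samples 2.78% to 10.03% and HCR samples 6.11% to 10.7% (median 8.63%).

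The next gains both lay on chromosome 4. At 1546001 to 1547000 HCR replicate 5 had 59.2%, against 13.8% to 21.3% in the other HCR samples and 13.97% to 23.4% in LCR (median 20.1%). At 25245001 to 25246000 HCR replicate 3 had 43.5%, against 2.03% to 10.5% in the other HCR samples and 0% to 10.4% in LCR (median 5.55%). In 4 of these 5 windows the other samples had a median under 10%, and in all 5 the deviating sample took an intermediate level.

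**Figure D2:**
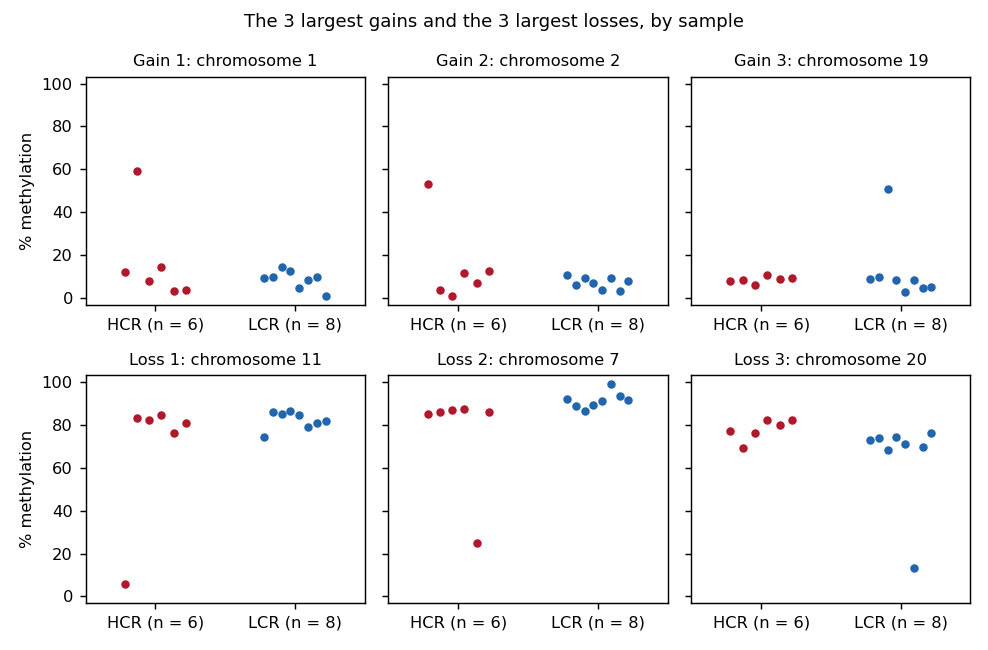
Methylation (y axis, %) of each sample in the 3 windows with the largest gain and the 3 with the largest loss; each point is one sample, red for HCR (n = 6) and blue for LCR (n = 8), spread sideways by replicate number. One point per panel stands apart, at 50.96% to 59.2% in the gains and at 5.77% to 25% in the losses, and the other 13 overlap between the lines or lie side by side.

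The largest deviations of 5 more samples are given next. HCR replicate 6 had 24.2% on chromosome 5 at 89319001 to 89320000, where the other samples had 64.4% to 75.4%. LCR replicate 2 had 10.6% on chromosome 8 at 42115001 to 42116000, against 44.9% to 59.5%. LCR replicate 5 had 43.3% on chromosome 16 at 43965001 to 43966000, against 74.03% to 88.0%. These 3 were losses.

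LCR replicate 1 had its largest deviation on chromosome 11 at 14701001 to 14702000, with 71.2% against 36.9% to 40.8% in the others. That span of 3.87 points was the narrowest among the 138 windows. LCR replicate 8 had 36.9% on chromosome 2 at 57710001 to 57711000, against 0% to 11.5%. LCR replicate 4 was the one sample with no deviating window.

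The number of deviating windows varied widely among samples of both lines. HCR replicates 1 to 6 held 16, 3, 24, 10, 6 and 11 windows, and LCR replicates 1 to 8 held 3, 15, 6, 0, 2, 7, 32 and 3. LCR replicate 7 and HCR replicate 3 together gave 56 of the 138, 44 of them losses. The HCR samples held 70 windows (50.7%) and made up 42.9% of the samples. HCR averaged 11.7 ± 7.50 windows per sample (SD, n = 6) and LCR 8.50 ± 10.5 (SD, n = 8). The rule does not use the line, so this count could be tested: the difference of 3.17 windows was smaller than the spread between samples (SE 4.82; two-sided exact permutation test over every split of the 14 samples into 6 and 8, p = 0.564, adjusted p = 0.808 over 3 counts). Differences from -8 to 13.5 windows, searched in steps of 0.25, were not rejected at 0.05.

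Gains and losses were not told apart between the lines either. Gains numbered 4.50 ± 4.37 per HCR sample (SD, n = 6) and 2.38 ± 3.02 per LCR sample (SD, n = 8), which differ by 2.13 (exact permutation p = 0.316, adjusted p = 0.808; interval -2.25 to 6.25). Losses numbered 7.17 ± 7.83 and 6.13 ± 7.92, which differ by 1.04 (exact permutation p = 0.808, adjusted p = 0.808; interval -8.25 to 10). Single samples had very unequal mixtures: HCR replicate 4 had 10 gains and 0 losses, HCR replicate 6 had 0 gains and 11 losses, HCR replicate 1 had 10 and 6, and LCR replicate 7 had 9 and 23. The rule was also run again without both LCR replicate 7 and HCR replicate 3, which selected another set of 169 windows with 50 gains. In that set the gains per sample were higher in HCR by 6.23 (exact permutation test, adjusted p = 0.0152), a setting chosen after the data were seen. With the others spanning up to 20 points the gains differed by 11.3 per sample (exact permutation p = 0.0273, adjusted p = 0.0819). With the rule run again without LCR replicate 7 alone they differed by 3.76 (exact permutation p = 0.028, adjusted p = 0.0839).

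**Figure D3:**
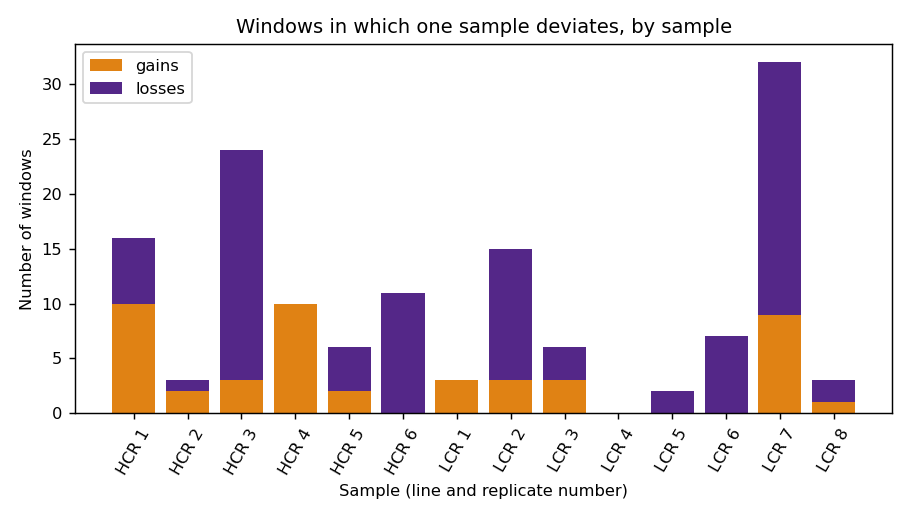
Number of windows (y axis) in which each sample (x axis, line and replicate number) was the one that deviated, stacked as gains (orange) and losses (purple). LCR replicate 4 has 0 windows and LCR replicate 7 has 32, and HCR replicate 4 holds gains only.

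Of the 10 gains of HCR replicate 4, 8 had a median under 16% in the other samples and a level of 35.3% to 51.6% in HCR replicate 4. Such levels were not particular to this sample. Over all 46 gains the others had a median of 9.60% and the deviating sample one of 44.2%. The 8 windows lay on chromosomes 1, 5, 6, 8, 12 and 16. On chromosome 6 at 16836001 to 16837000 HCR replicate 4 had 44.1%, against 1.27% to 13.9% in the others. On chromosome 1 at 185534001 to 185535000 it had 35.4%, against 0% to 9.89%. This sample lacked a value in 6663 windows, and 9 of the other 13 samples lacked more.

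Samples that lacked a value in more windows had more deviating windows. LCR replicate 4 lacked a value in 2705 windows of the table and LCR replicate 7 in 23521. Pearson's r between this number and that of deviating windows was 0.86 across the 14 samples (permutation p = 3e-05). Spearman's rho was 0.82 (permutation p = 0.00074). Adjusted over 3 relations these p-values were 9e-05 and 0.00222. In the 6 HCR samples alone the values were r = 0.93 and rho = 0.94 (exact permutation p = 0.00972 and 0.0167, adjusted p = 0.00972 and 0.0167). In the 8 LCR samples alone they were r = 0.86 and rho = 0.85 (exact permutation p = 0.00818 and 0.0112, adjusted p = 0.00972 and 0.0167). When the 2 samples farthest from the median of the horizontal axis were left out, r became 0.63 for the pooled samples, 0.64 for HCR and 0.49 for LCR.

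The relation passed the test for losses and did not for gains. For losses r was 0.87 over the 14 samples (permutation p = 4e-05, adjusted p = 0.00036) and rho was 0.88 (permutation p = 8e-05, adjusted p = 0.00072). These values belong to 9 relations chosen after the data were seen. Within the lines r for losses was 0.88 in HCR and 0.90 in LCR (exact permutation test, adjusted p = 0.0325 and 0.00565), and rho was 0.89 and 0.92 (exact permutation test, adjusted p = 0.06 and 0.0101), so that rho in HCR did not pass 0.05. Without the 2 samples farthest from the median r for losses became 0.70 for the pooled samples, 0.55 for HCR and 0.69 for LCR. With a span of at most 10 points, which left 13 losses, r for losses was 0.61 and did not pass (permutation test, adjusted p = 0.199). For gains r was 0.35 (permutation p = 0.217, adjusted p = 0.244) and rho 0.27 (permutation p = 0.342, adjusted p = 0.398). Within the lines r for gains was 0.022 in HCR and 0.63 in LCR (exact permutation test, adjusted p = 0.972 and 0.145), and the LCR value turned to -0.45 once its 2 samples farthest from the median, LCR replicate 7 among them, were left out.

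The difference between losses and gains per sample also went with windows lacking a value (r = 0.70, permutation p = 0.00475, adjusted p = 0.0107; rho = 0.66, permutation p = 0.0125, adjusted p = 0.0281). It did so within LCR (r = 0.92, exact permutation test, adjusted p = 0.0029) and not past 0.05 within HCR (r = 0.66, exact permutation test, adjusted p = 0.186). Without the 2 farthest samples these values were 0.45, 0.83 and 0.26. At a span of at most 10 points the pooled r was 0.36 and did not pass (permutation test, adjusted p = 0.435). The part of sequencing depth in these counts was not tested, since the table holds no read counts.

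**Figure D4:**
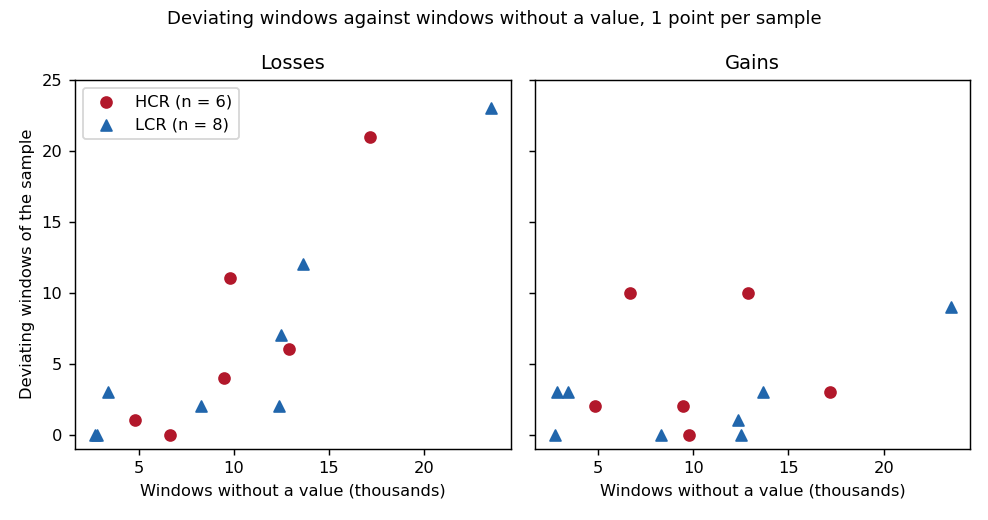
Number of losses (left) and gains (right) of each sample (y axis) against the number of windows of the whole table in which that sample has no value (x axis, in units of 1000); red circles are HCR (n = 6) and blue triangles LCR (n = 8). Losses climb along the axis to 23 in LCR replicate 7 (r = 0.87), whereas gains of 10 occur in HCR replicate 4 and HCR replicate 1 at 6663 and 12895 windows (r = 0.35).

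Around the members the deviating sample lacked values about as often as it did elsewhere. Among the 751 windows of the table within 20 kb of a member, the deviating sample had no value in 52 (6.92%), and the other samples in 4.65%. The same samples, weighted alike, lacked a value in 7.66% of all autosomal windows. Near gains the deviating sample lacked 3.58% and near losses 8.90%, against 6.63% and 8.27% in the same samples at large.

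In the windows directly beside a member, the deviating sample was on average shifted the same way by a smaller amount. Such windows were not used by the rule unless they were members themselves, and 46 of them, next to 42 members of 12 samples, had a value in all samples. Averaged first within each sample, the shift toward the member's direction was 5.85 points (SE 1.58, n = 12), and 10 of 12 samples had a positive mean (exact sign-flip permutation test, two-sided, p = 0.00195, adjusted p = 0.00977 over 5 distances). In 8 of the 46 windows (17.4%) the sample lay beyond all 13 others in that direction, against 12.2% of the windows at 2 to 5 kb, 10.1% at 6 to 20 kb, 8.62% at 21 to 100 kb and 9.60% at over 100 kb to 1 Mb. These shares were not tested.

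The call did not hold in every run of the rule with a sample left out. Such runs also selected other windows, so the part of the left-out sample itself was not tested. The adjusted p by the exact sign-flip test was 0.122 without LCR replicate 1, 0.0623 without LCR replicate 7 and 0.0822 without LCR replicate 8. It was 0.0586 with each library centred on its mean, where the shift was 5.29 points. A shift of 20 points or more was found in 2 of the 46 windows, one of 10 points or more in 12, and 18 windows were shifted the other way. The median over the 46 windows was 2.43 points. Sample means weighed alike whatever their number of windows. Those of LCR replicate 1 (13.4 points), LCR replicate 8 (10.5) and HCR replicate 2 (-0.288) rested on 1 window each. HCR replicate 5 had the highest mean, 16.1 points over 4 windows, and LCR replicate 7 had 1.73 points over 14.

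**Figure D5:**
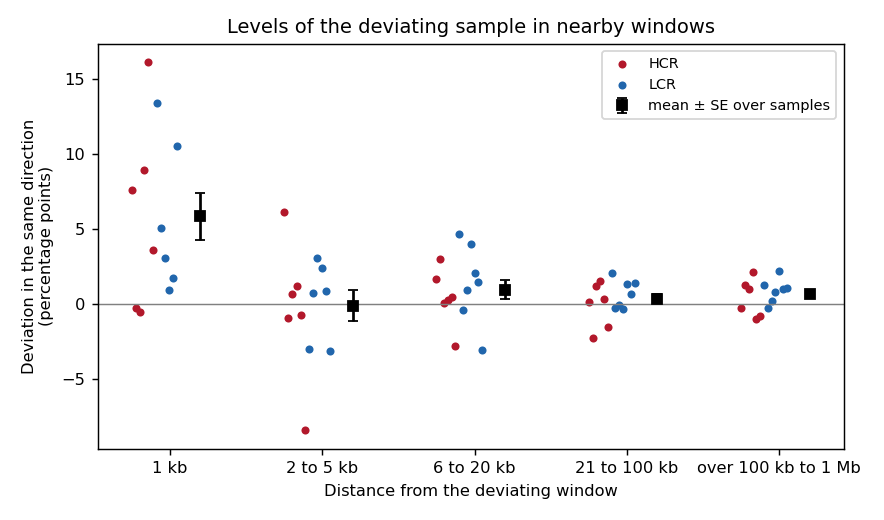
Deviation of the sample from the median of the other 13, counted positive in the direction of its deviating window (y axis, percentage points), in measured windows at 5 distances (x axis). Each point is the mean of one sample (red HCR, blue LCR), and the black squares and bars are the mean ± SE over samples; the mean is 5.85 points at 1 kb and between -0.109 and 0.938 points farther out.

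Both adjacent windows with a shift of 20 points or more stood beside gains. On chromosome 4, next to the gain of HCR replicate 5 at 1546001 to 1547000, the window at 1547001 to 1548000 had 66.2% in that sample and 10.6% to 27.8% in the other 13. One sample thus stood at over 59% across both windows and the others under 30%. The adjacent window is no member because the others spanned more than 15 points. On chromosome 8, HCR replicate 4 had 45.1% at 22081001 to 22082000, against 4.69% to 19.05% in the others. In the next window, at 22082001 to 22083000, it had 41.6%, against 7.05% to 31.1%.

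Gains had 25 adjacent windows, in 6 of which the deviating sample lay beyond all others, and losses had 21, with 2 such windows. The mean shift over samples was 7.15 points beside gains (SE 2.74, n = 9, exact sign-flip permutation p = 0.0313, adjusted p = 0.156) and 2.35 points beside losses (SE 1.57, n = 7, exact sign-flip permutation p = 0.188, adjusted p = 0.441). Whether these values differ was not tested. The loss with the strongest shift beside it was that of LCR replicate 7 on chromosome 20 at 21485001 to 21486000, where it had 35.2% and the others a median of 70.1%. In the window before it, at 21484001 to 21485000, it had 19.7%, against 25.4% to 44.02%.

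Farther out there was no shift past the test. The means were -0.109 points at 2 to 5 kb, 0.938 at 6 to 20 kb, 0.318 at 21 to 100 kb and 0.659 at over 100 kb to 1 Mb (exact sign-flip permutation test, adjusted p = 0.92, 0.273, 0.472 and 0.106).

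The members lay scattered. No 2 of them were within 100 kb of each other, the nearest lay 182 kb apart, and the median distance to the nearest other member on the chromosome was 5049 kb. There were 12 pairs at over 100 kb to 1 Mb, of which 3 pairs shared the sample, 9 the line and 1 both sample and direction. That pair was of 2 gains of HCR replicate 1 on chromosome 4, at 167922001 to 167923000 (41.4%, others at a median of 5.69%) and at 168104001 to 168105000 (47.1%, others at 14.6%). The other 2 pairs of one sample were of LCR replicate 7 and joined a gain with a loss, on chromosomes 1 and 3. In pairs at over 1 to 10 Mb 17.5% shared the sample, against 15.4% of pairs farther apart on one chromosome and 12.0% of the pairs on different chromosomes. The line was shared by 49.4% of the pairs on different chromosomes. These shares were not tested.

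All 20 autosomes held members, on average 10.5 per 10000 windows with 14 values. The densest were chromosome 11 with 7 members (19.5 per 10000), chromosome 16 with 8 (18.2) and chromosome 15 with 7 (16.7). The sparsest were chromosome 18 with 1 (2.57 per 10000) and chromosome 12 with 2 (3.52). Single samples weighed on some of these counts: 7 of the 15 members of chromosome 1 came from LCR replicate 7, and 5 of the 8 on chromosome 7 from LCR replicate 2. Both members of LCR replicate 5 lay on chromosome 16. With counts this small and windows that are not independent, the order of chromosomes was not tested.

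Gains and losses had different surroundings. Gains had a measured neighbour window in 50% of cases, whose median level was 18.9%; losses had one in 20.7%, with a median level of 66.3%. To compare like levels, the 36 gains with a median of all 14 samples under 30% were set beside all windows under 30%. Of these gains 52.8% had a measured neighbour, with a median level of 17.4%, against 59.0% and 3.28% in all such windows. Of the 86 losses at 50% or more 22.1% had a measured neighbour, with a median level of 66.3%, against 28.1% and 57.0% in all windows at 50% or more. The number of measured windows within 50 kb had a median of 7.5 around these gains and 6.5 around these losses, against 11 and 7. Windows with all 14 samples within 15 points are closer to the members. Of those under 30%, 70.2% had a measured neighbour (median level 1.98%), and of those at 50% or more 25.2% had one (60.7%). These comparisons carry no test, and levels within each range were not matched further. Within 2 Mb of the outermost measured window of a chromosome lay 5 members (3.62%), against 2.97% of all windows.

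No member passed the comparison of the lines. In the limma model fitted to all 131799 windows, which called 0.574% of them at a Benjamini-Hochberg adjusted p under 0.05, 0 of the 138 members were called. At an unadjusted p under 0.05 limma had 9 of the 138 (6.52%), against 11.0% of all windows. The smallest adjusted p of a member by limma was 0.254, for a gain of HCR replicate 4 on chromosome 16 at 57568001 to 57569000 (51.6%, others 8.74% to 23.6%). One deviating sample enlarges the spread within its line, so few calls follow from the rule and nothing is read from their number.

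The deviating sample set most of the line difference that a member showed, which follows largely from the rule. The rule placed that sample far from the others, which shifts the mean of its line, and kept the others close together. The windows as a whole were under no limit on their span. The sizes that follow are therefore a description, and nothing is read from them. The median size of the difference between line means was 5.37 points with that sample and 1.47 points without it, against 1.75 points in all windows. The largest was 15.4 points, in the chromosome 7 window of HCR replicate 5 at 22874001 to 22875000, where HCR averaged 76.02% ± 25.01 (SD, n = 6) and LCR 91.5% ± 3.80 (SD, n = 8), a difference of -15.4 points that became -5.23 without that sample.

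Windows with 2 samples deviating together were rare. The same rule with 2 samples deviating in one direction and the other 12 spanning at most 15 points held for 7 windows, 2 gains and 5 losses. Both samples were HCR in 4, both LCR in 0 and one of each line in 3, so 57.1% were of one line, against a mean of 47.3% over every split of the samples (two-sided exact permutation test, p = 0.682). At 115484001 to 115485000 on chromosome 7, HCR replicates 5 and 6 had 74.6% and 41.7%, and the others a median of 9.01%. At 121300001 to 121301000 on chromosome 4, HCR replicates 1 and 2 had 54.2% and 53.5%, and the others a median of 21.3%. In 2 settings with looser limits the share of one line passed the test: 69.0% of 29 windows at a deviation of 25 points (exact permutation p = 0.0286) and 70.4% of 27 at a span of 20 points (exact permutation p = 0.035). These p-values were not adjusted for the 21 settings tried. With at least 12 values the share was 50% of 16 windows and did not pass.

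Without any limit on the span of the others, 3688 windows had exactly one sample 30 points or more away, and 41.1% of these were gains, against 33.3% of the members. LCR replicate 4 had the fewest of them (45) and LCR replicate 7 the most (634), as for the members. HCR replicate 4 again had mostly gains (311 of 378) and LCR replicate 7 mostly losses (544 of 634). Other samples had a different mixture here: HCR replicate 6, whose members were 11 losses and 0 gains, had 153 losses and 125 gains, and HCR replicate 5, with 4 and 2 among the members, had 93 and 110.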

How the data were processed

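RRBS libraries had been made from 100 ng of genomic DNA with a Diagenode kit, then pooled for conversion and PCR, per the labels' protocols. Reads were handled with FastQC, Trim Galore 0.6.10, Bismark and Bowtie2 on build rn7, per the submitters' processing notes. The deposited table gives percent methylation per window of 1000 bp and library, with no counts. Its coverage minimum, window tool and handling of duplicates were not given in the sources used here. Columns were matched by library name and groups taken from titles; 0 sample columns were unused.

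The members and lists were chosen with earlier results of these data known. Named windows are the 5 largest gains, the 5 largest losses and each sample's largest deviation; adjacent members and members called by limma would also be named, and there were none. Lines were compared by exact permutation over every split into 6 and 8, shifts beside members by exact sign-flip tests over samples, and relations by permutation (100000 resamples for 14 samples), with Benjamini-Hochberg adjustment. The limma 3.58.1 fit (R 4.3.3) used log2((level + 0.01)/(1 - level + 0.01)) of all 131799 windows, line as factor and a variance trend. On simulated data with these windows' means and spreads it called 46 of 100 windows changed by 1 log2 logit unit, 98 of 100 changed by 2 and 5 of 131599 unchanged ones. The changes were placed only in windows of intermediate mean level, with normal noise and no outlying sample. These rates therefore do not cover windows like the members. The rest was done with numpy 2.4.6, scipy 1.17.1 and pandas 2.3.3 under Python 3.11.15. The alternatives tried were deviations of 25 and 40 points, spans of 10 and 20, centred libraries, at least 12 values, X included, other scales in limma, leaving out each sample and a replicate block. Leaving out a sample meant running the rule again on the remaining ones, so the windows were selected anew. Limma kept the members of the main run, and the correlations without the 2 farthest samples kept its counts.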

Additional observations from a re-analysis of the deposited data

Results flagged for a closer look

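In 10 sets of values (5 measures of a library in each line), 2 held a sample far from the others, the same library in both. Chance gives about 1 in 20 for a single set. The sets overlap, since deviating windows are the sum of gains and losses, so the 2 flags are not independent. LCR replicate 7 had 32 deviating windows, its distance to the next LCR sample being 0.531 of the range. It also had 9 gains, at a distance of 0.667 of the range. The windows themselves were chosen for one outlying sample and were not examined in this way.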

How the results depend on the processing

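The number of 138 members follows its limits. It was 310 at a deviation of 25 points, 29 at 40, 24 at a span of 10, 444 at a span of 20 and 264 with at least 12 values, and 142 to 165 when each sample was left out. The line difference per sample ranged from 1.95 to 9.74 when each sample was left out for all members, from 1.80 to 5.30 for gains and from -1.50 to 5.98 for losses. At a span of 10 it was -0.0833 for all and -0.208 for gains; for losses it was -1.50 at a span of 20 and -0.0417 with at least 12 values. By adjusted p, only the gains selected anew without LCR replicate 7 and HCR replicate 3 passed 0.05 (difference 6.23). At a span of 20 gains differed by 11.3 (exact permutation test, adjusted p = 0.0819). The share of one line among windows with 2 deviating samples was 69.0% at 25 points, 70.4% at a span of 20 and 50% with at least 12 values. It was 0% at a span of 10, which left 1 window, and 36.4% to 77.8% when each sample was left out. The adjacent shift did not pass at a deviation of 25 (2.72 points) or 40 (10.1), a span of 10 (8.52), with centred libraries (5.29), at least 12 values (3.74) or without LCR replicate 7 and HCR replicate 3 (2.76); leaving out each sample gave 4.47 to 6.54. The cause was not tested, though fewer windows entered at 40 points and at a span of 10. For all members the relation with windows lacking a value passed in all 22 settings, whereas at a span of 10 it did not for losses (r = 0.61) or for losses minus gains (r = 0.36); r for gains was -0.26 at a deviation of 40 points. Limma called 756 windows, 432 with the 12 samples numbered 1 to 6, 68 with the replicate block and 468 to 652 when each sample was left out. In all 20 other settings 0 members were called. The replicate numbers do not pair the samples (correlations -0.0308 to 0.0346; 1 of 6 HCR samples correlated best with its own number), and with the replicate block no line difference in counts passed.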
